A study of Mus musculus with 12 samples.

Results

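The genes described here encode the protein subunits of the oxidative phosphorylation system of B16F10 cells, a mouse melanoma line. They were the protein-coding rows of the gene count table whose symbols are those of complex I (Nduf), complex II (Sdh), complex III (Uqcr), complex IV (Cox) and ATP synthase (Atp5) subunits, together with the protein genes of mitochondrial DNA (mt-). The rule found 98 genes among the 54232 of the table. Of these, 85 lie in nuclear DNA, with 37 for complex I, 4 for complex II, 8 for complex III, 18 for complex IV and 18 for complex V, and 13 lie in mitochondrial DNA, with 7 for complex I, 1 for complex III, 3 for complex IV and 2 for complex V.

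Complexes I to IV pass electrons from NADH and succinate to oxygen in the inner mitochondrial membrane, and complexes I, III and IV pump protons as they do so. Complex V, the ATP synthase, lets the protons flow back and makes ATP. All complexes except complex II are built from subunits of both genomes, so that messages copied from the circular mitochondrial DNA by its own polymerase meet subunits that are transcribed in the nucleus, translated in the cytosol and imported.

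RNA of 12 libraries was sequenced, in 4 groups of 3, all labelled as B16F10 tumor cells with the strain C57BL/6 and an age of 6 weeks. Untreated cultured cells form the group WT. The group Relapsed holds the cell lines ITF1, Rel and ITM, sorted from tumors that grew under the skin and came back after immunotherapy, then grown to confluency. The group Lyso holds cells given lysosomes derived from T cells. The labels put this incubation at 48 hours, and the study's methods describe a shorter one with secreted granules. The group Tumor holds libraries 1, 3 and 4, from cells sorted out of relapsed tumors with RNA taken at once. An immunotherapy of the study joined an agonist of CD40, TNFα and an antibody to the melanoma protein TRP1. The study also treated tumors with transferred T cells reactive to gp100 or TRP2. Each relapsed line is a line of its own, and nothing in the labels says whether the libraries of WT, Lyso or Tumor came from separate cultures or animals, so p-values measure the spread between these libraries.

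Between 1667398 and 16402629 reads per library were counted on genes. WT 1 and WT 2 (1667398 and 2350129) and the Tumor libraries (3102442 to 5049496) were shallow, and WT 3, the relapsed lines and the Lyso libraries were deep, so depth and group were partly confounded. Levels are given as CPM, TMM-scaled counts per 1e+06, in which 3 counts stand for 0.177 CPM in WT 3 and 1.7 CPM in WT 1, the shallowest library. All 10 melanocyte markers were above 3 counts in every library. Of the 10 fibroblast markers, all were called higher in Tumor than in WT, where 12.1% of all genes tested were. Their summed levels were 7707 to 10709 CPM in Tumor against 30.0 to 39.5 CPM in WT. Only 4 of these 10 were above 3 counts in all WT libraries, so others may have been tested only through their Tumor counts. Endothelial markers summed to 47.3 to 52.0 CPM in Tumor and 2.96 to 10.2 in WT, and myeloid markers to 41.0 to 69.7 and 12.5 to 29.2 CPM. In Lyso 3 of 4 tested T cell markers were called higher than in WT, where 3.5% of all genes tested were, and Lck was not called. The 12 markers summed to 15.8 to 17.9 CPM in Lyso against 1.27 to 6.79 CPM in WT. Of the 12, 10 were at 0 in all WT libraries, Cd3e and Cd8a among them, and none at 0 in all Lyso libraries. Markers at 0 in all WT libraries, such as Cd8a, Gzmb, Lum and Thy1, were tested only because other groups held counts of them. Among tested genes these had to differ from WT in some group. Lyso 1 stood apart from the other two Lyso libraries, with a chi-square per degree of freedom over genes of 12.1 and 11.7 against them, where Lyso 2 and Lyso 3 differed by 1.55. Pairs of WT libraries ran from 4.79 to 20.3, pairs of Tumor libraries from 3.64 to 5.78 and pairs of relapsed lines from 47.4 to 67.2. This measure grows with depth, so its values are not comparable between groups of unlike depth.

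Not all 13 mitochondrial genes could be measured. Nuclear DNA carries old copies of stretches of mitochondrial DNA, and reads that fit several places equally well are not counted on any gene in these data. The middle 75 bases of mt-Co2, which encodes a copper-binding core subunit of complex IV, and of its copy Gm28661 are shown first because they are the same in both places. The middle 75 bases of mt-Cytb, the cytochrome b of complex III, and of its copy Gm11410 follow, with the 6 bases that differ in capitals. All 4 were read from the GENCODE transcripts of GRCm38, mt-Co2 at chrM:7317-7391 (+), Gm28661 at chr1:24615187-24615261 (-), mt-Cytb at chrM:14679-14753 (+) and Gm11410 at chr4:80004523-80004597 (+).
mt-Co2: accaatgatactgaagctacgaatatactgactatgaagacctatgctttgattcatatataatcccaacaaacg
Gm28661: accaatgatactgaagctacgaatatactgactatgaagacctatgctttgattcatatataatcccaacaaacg
mt-Cytb: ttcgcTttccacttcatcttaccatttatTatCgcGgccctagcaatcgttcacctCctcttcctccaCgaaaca
Gm11410: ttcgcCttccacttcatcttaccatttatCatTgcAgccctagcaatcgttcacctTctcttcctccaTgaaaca

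Over all 12 libraries mt-Co2 held 1 count and mt-Cytb held 1454476. In mt-Co2, 99.5% of the stretches of 75 bases, the read length, were also found in another annotated transcript, and in mt-Cytb 0.0% were. The genes mt-Co3, mt-Atp6, mt-Nd3 and mt-Nd4l, with 99.9%, 99.5%, 97.8% and 98.7% of stretches shared, held 0, 1, 1 and 0 counts. mt-Atp8 held 0 counts with 0.0% of its stretches in an annotated copy, and unannotated copies were not searched. Both ATP synthase subunits of mitochondrial DNA, mt-Atp6 and mt-Atp8, are therefore without a value here, as are 2 of the 3 complex IV subunits. Among the 7 genes with counts, mt-Nd4 (61.5% shared) and mt-Co1 (39.8%) lost part of their reads and mt-Nd2 (5.7%) and mt-Nd5 (1.7%) little, so levels were compared between groups and not between these genes. Of the 13 genes 1, mt-Nd6, lies on the light strand, and since the strand setting of the counting was not given in the sources used here, reads of the opposite strand may be among its counts.

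**Figure D1:**
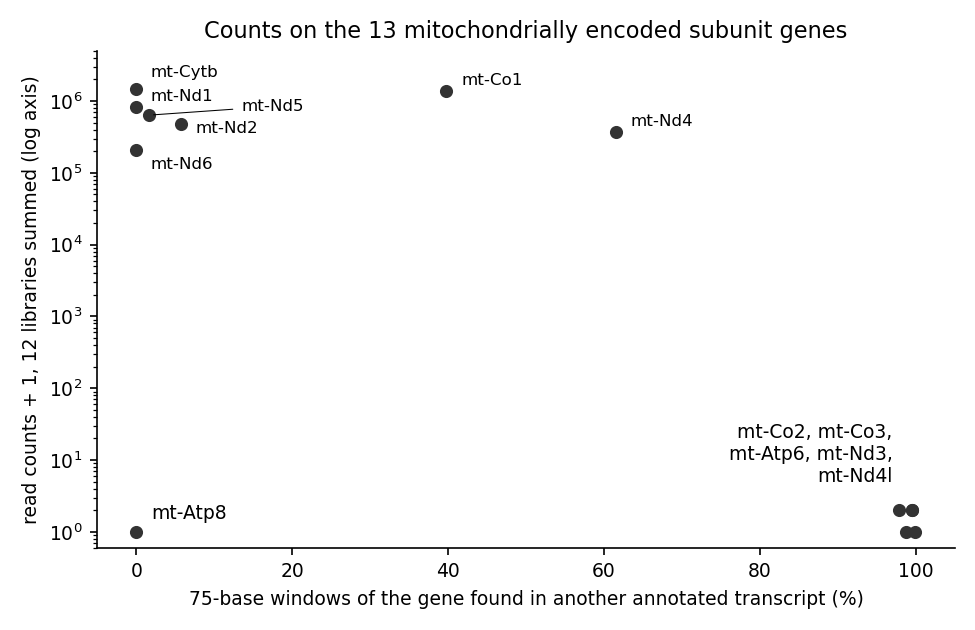
Read counts plus 1, summed over 12 libraries, of each of the 13 mitochondrially encoded subunit genes on a log axis, against the percent of its 75-base stretches found in another annotated transcript. The 5 genes with 97.8% to 99.9% shared hold 0 or 1 counts, mt-Atp8 holds 0 with none shared, and the other 7 hold 204959 to 1454476.

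The share of gene counts on the mitochondrially encoded subunit genes was highest in Lyso and lowest in Tumor. It was 3.61%, 3.87% and 4.21% in WT, 3.12% in ITF1, 5.30% in Rel and 3.89% in ITM, 8.14%, 5.85% and 5.85% in Lyso, and 2.94%, 2.84% and 2.54% in Tumor. Each Lyso library was above every other library, each Tumor library was below every other library, and the relapsed lines spanned the WT range. In these bulk libraries a lower share cannot be told apart as fewer mitochondria, less RNA in each or fewer cells that carry much of it. Summed CPM was 1.82 times the WT mean in Lyso and 0.745 times in Tumor. The 85 nuclear genes together moved far less, from 12136 ± 1384 CPM in WT to 12430 ± 799 in Relapsed, 12978 ± 262 in Lyso and 11800 ± 226 in Tumor (SD, n = 3), and their ranges overlapped between WT and each other group. Counts on mitochondrial per count on nuclear subunit genes were 3.13 ± 0.41 in WT, 3.25 ± 0.77 in Relapsed, 5.29 ± 1.15 in Lyso and 2.38 ± 0.21 in Tumor (SD, n = 3). No test was run on these sums.

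**Figure D2:**
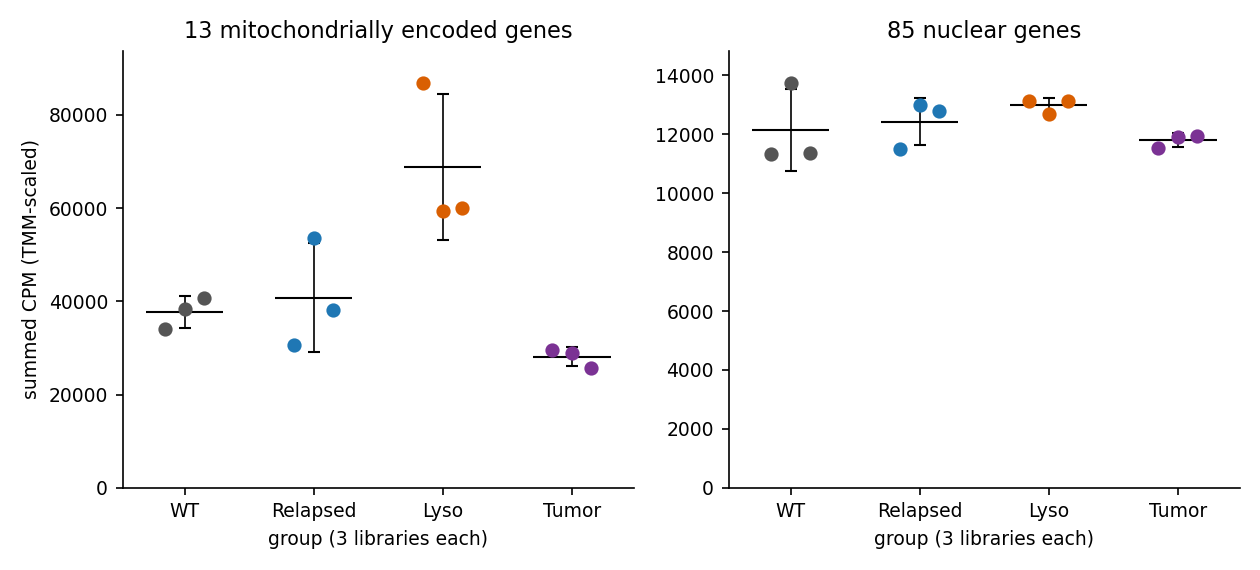
Summed TMM-scaled CPM per library of the 13 mitochondrially encoded genes (left) and the 85 nuclear subunit genes (right) in the 4 groups, with points for libraries, lines for the mean of 3 and bars for 1 SD. Mitochondrially encoded genes range from 25804 in Tumor 4 to 86821 in Lyso 1, and nuclear genes from 11321 in WT 1 to 13735 in WT 2.

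All 7 measured mitochondrial genes were higher in each Lyso library than in each WT library, and 4 of them passed the test. edgeR's quasi-likelihood test with Benjamini-Hochberg adjustment over 14924 genes called mt-Nd1, mt-Nd2, mt-Nd4 and mt-Co1 higher at an adjusted p under 0.05, where 3.5% of all genes tested were called higher and 1.21% lower. Of all genes tested 27.4% did not overlap between Lyso and WT. The median log2 difference over the 7 was 0.91, against -0.0048 over all genes tested. DESeq2 called 7 of the 7. The summed T cell markers given above were also higher in Lyso than in WT. The share of reads that fit several places was 13.6% to 14.9% in Lyso against 12.1% to 12.7% in WT. The part of either in the result was not tested.

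mt-Co1 encodes the catalytic core of complex IV, with the haem and copper centre where oxygen is reduced. Its levels were 8369, 8499 and 10341 CPM in WT, 8764 in ITF1, 14648 in Rel and 8610 in ITM, 20374, 15995 and 16370 in Lyso, and 7061, 7519 and 7299 in Tumor. It was 1.94-fold higher in Lyso than in WT (log2 0.95, SE 0.23, edgeR adjusted p = 0.0336). Lyso 1 was the highest library, and Lyso 2 and Lyso 3 lay close together above all others.

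Complex I subunits of mitochondrial DNA form its proton-pumping membrane arm. mt-Nd1, at the joint between that arm and the arm that takes up electrons, stood at 3607, 6429 and 5668 CPM in WT and at 13041, 9112 and 9169 CPM in Lyso, a difference of 1.0 on the log2 scale (SE 0.25, edgeR adjusted p = 0.038). mt-Nd4, one of the pump-like subunits of the arm, had 2397, 2576 and 2789 CPM in WT and 6594, 4109 and 4152 in Lyso (log2 0.94, SE 0.24, edgeR adjusted p = 0.0402). mt-Nd2, another of them, had 3158, 3466 and 3417 CPM in WT and 8549, 5152 and 5168 in Lyso (log2 0.91, SE 0.24, edgeR adjusted p = 0.0499). The WT libraries of both lay close together, and Lyso 1 stood well above the other Lyso libraries. mt-Nd5, with 4480, 4346 and 5054 CPM in WT and 10240.2, 6602 and 6472 in Lyso, did not pass (log2 0.75, SE 0.24, edgeR adjusted p = 0.104). Nor did mt-Nd6, with 1450, 1268 and 1587 CPM in WT and 3361, 2104 and 2043 in Lyso (log2 0.80, SE 0.24, edgeR adjusted p = 0.0815). mt-Cytb, the complex III gene of mitochondrial DNA, had 10563, 11792 and 11833 CPM in WT and 24662, 16337 and 16720 in Lyso and was not called (log2 0.76, SE 0.26, edgeR adjusted p = 0.13).

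These calls rested on few libraries and on the fit. When any single Lyso or WT library was left out, 0 of the 7 genes were called, apart from 1 without WT 2. Without Lyso 1 the median log2 difference was 0.62, with WT 3, the control of like depth, alone it was 0.75 with 0 called, and with WT 1 and WT 2 alone 0.93 with 0 called.

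**Figure D3:**
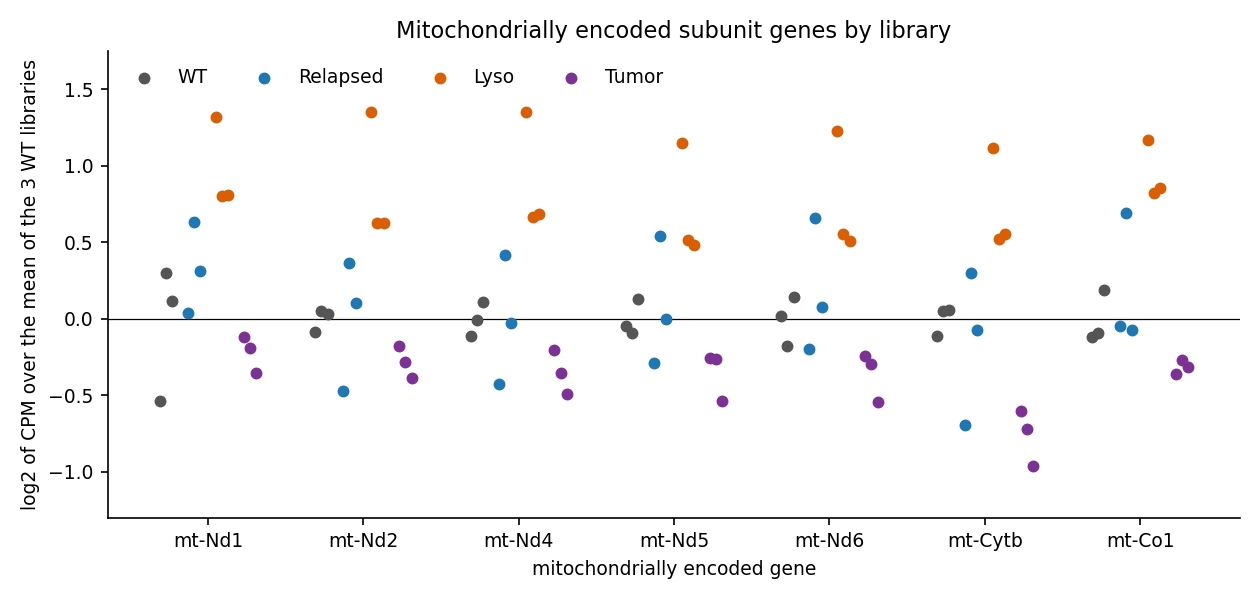
Log2 of CPM over the mean of the 3 WT libraries for the 7 measured mitochondrially encoded genes, each point 1 library, coloured by group. All Lyso points lie above all WT points of the same gene, Lyso 1 is the highest in each, and Tumor points lie below all WT points for 6 of the 7, the exception being mt-Nd1.

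In cells sorted from tumors all 7 had mean levels below WT, but none passed the test. Their log2 differences ran from -0.76 to -0.22 with a median of -0.35, 6 of the 7 did not overlap with WT, as 36.1% of all genes tested did not, and edgeR called 0 of 7 higher and 0 lower, where it called 12.1% of all genes tested higher and 6.94% lower. At an unadjusted p under 0.05 there was 1, mt-Cytb, which DESeq2 called (1 of 7). Its levels in Tumor were 7500, 6911 and 5842 CPM, below each WT library and, for Tumor 3 and Tumor 4, below each relapsed line (ITF1 7045, Rel 14002, ITM 10825 CPM). The difference from WT was -0.76 on the log2 scale (SE 0.26, edgeR adjusted p = 0.0596). mt-Nd1 overlapped between the groups, at 4827, 4586 and 4094 CPM in Tumor, since WT 1 was low.

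Between the relapsed lines and WT, both cultured without lysosomes, no member passed the test. Between Relapsed and WT edgeR called 0 of 7 mitochondrial and 0 of 77 tested nuclear genes, where 0.0134% of all genes tested were called higher and 0.0268% lower, and DESeq2 called 0 of each. Unadjusted p under 0.05 was reached by 0 mitochondrial and 2 nuclear genes. The 7 mitochondrial differences lay between -0.10 and 0.35 on the log2 scale. The 3 lines differed among themselves, with Rel the highest of them for each of the 7 genes and ITF1 the lowest for all except mt-Co1.

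Against the relapsed lines the differences had the same sign as against WT. Between Lyso and Relapsed mt-Nd2 and mt-Nd4 were called higher by edgeR, at 0.87 and 0.91 on the log2 scale (SE 0.24 in both, adjusted p = 0.0441 and 0.0341), where 4.87% of all genes tested were called higher and 2.81% lower. The median over the 7 was 0.72, DESeq2 called 4, and leaving out Rel raised the edgeR count to 6, whereas it was 1 without ITM and 0 without any other single library of the compared groups. Between Tumor and Relapsed edgeR called 0 of 7, with a median of -0.55, 4 genes at an unadjusted p under 0.05 and 2 called by DESeq2. Without ITF1 edgeR called 2 and without ITM 1.

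Of the 85 nuclear genes, 77 passed the filter on low counts. The levels per kilobase of annotated exon ran over a wide range in WT, led by Atp5b, the catalytic beta subunit of ATP synthase, with 405 CPM per kilobase, then Cox6a1 with 373, Ndufa4 with 285 and Atp5a1, the alpha subunit, with 267. Core subunits of complex I were lower, with 31.7 for Ndufs1, which holds iron-sulphur clusters, 29.6 for Ndufs7 and 32.1 for Ndufs3, and Sdhb of complex II had 168. Exon length was taken over all annotated transcripts of a gene, which lowers the value of genes with long rare transcripts. Copies limit nuclear genes too: 48 of the 85 shared no 75-base stretch with another gene, 16 shared at least 20% and 2 at least 50%. Those 2 were Atp5l with 76.0% and a second entry for Atp5o, with 83.8% and 0 counts.

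Between Lyso and WT the nuclear subunit genes did not pass the test in any complex. edgeR called 0 of 77, where 3.5% of all genes tested were called higher and 1.21% lower, and DESeq2 called 0. An unadjusted p under 0.05 was reached by 9 of the 77 and by 2789 of the 14924 genes tested. Their median log2 difference was 0.09, and 61 of the 77 were above 0. By complex the medians were 0.05 for complex I, 0.13 for II, 0.15 for III, 0.19 for IV and 0.08 for V. With library size as the only scaling, which shifted the median of all genes tested to -0.10, the nuclear median was -0.0081, so its sign depended on the scaling.

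None of the catalytic and core subunits in the nucleus was called against WT in Relapsed, Lyso or Tumor. Atp5b stood at 1519, 2097 and 1532 CPM in WT, 1727, 1767 and 1789 in Lyso and 1775, 1940 and 1952.5 in Tumor, within the WT range in every library of both groups. Sdha, the flavin-bearing subunit of complex II, stood at 209, 266 and 265 CPM in WT, 215, 242 and 245 in Lyso and 225, 253 and 273 in Tumor, so that the groups overlapped. Ndufv1, which binds NADH and the flavin of complex I, stood at 95.1, 100.5 and 85.2 CPM in WT, 86.7, 87.7 and 88.9 in Lyso and 98.8, 104 and 101 in Tumor. Uqcrc1, a core protein of complex III, stood at 188, 312 and 236 CPM in WT, 291, 260 and 275 in Lyso and 217, 211 and 220 in Tumor. Cox5a, a subunit of complex IV, was above each WT library (95.7, 138 and 122 CPM) in each Lyso library (145, 162 and 168 CPM) without being called.

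In cells sorted from tumors, edgeR called 6 of the 77 nuclear genes against WT, 3 higher and 3 lower, with 12.1% and 6.94% of all genes tested called in those directions. The median log2 difference was -0.11, with 58 of the 77 below 0, and by complex -0.13 for I, -0.02 for II, -0.12 for III, -0.09 for IV and -0.11 for V. In both directions the share of subunit genes called was below that of all genes. DESeq2 called 5.

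**Figure D4:**
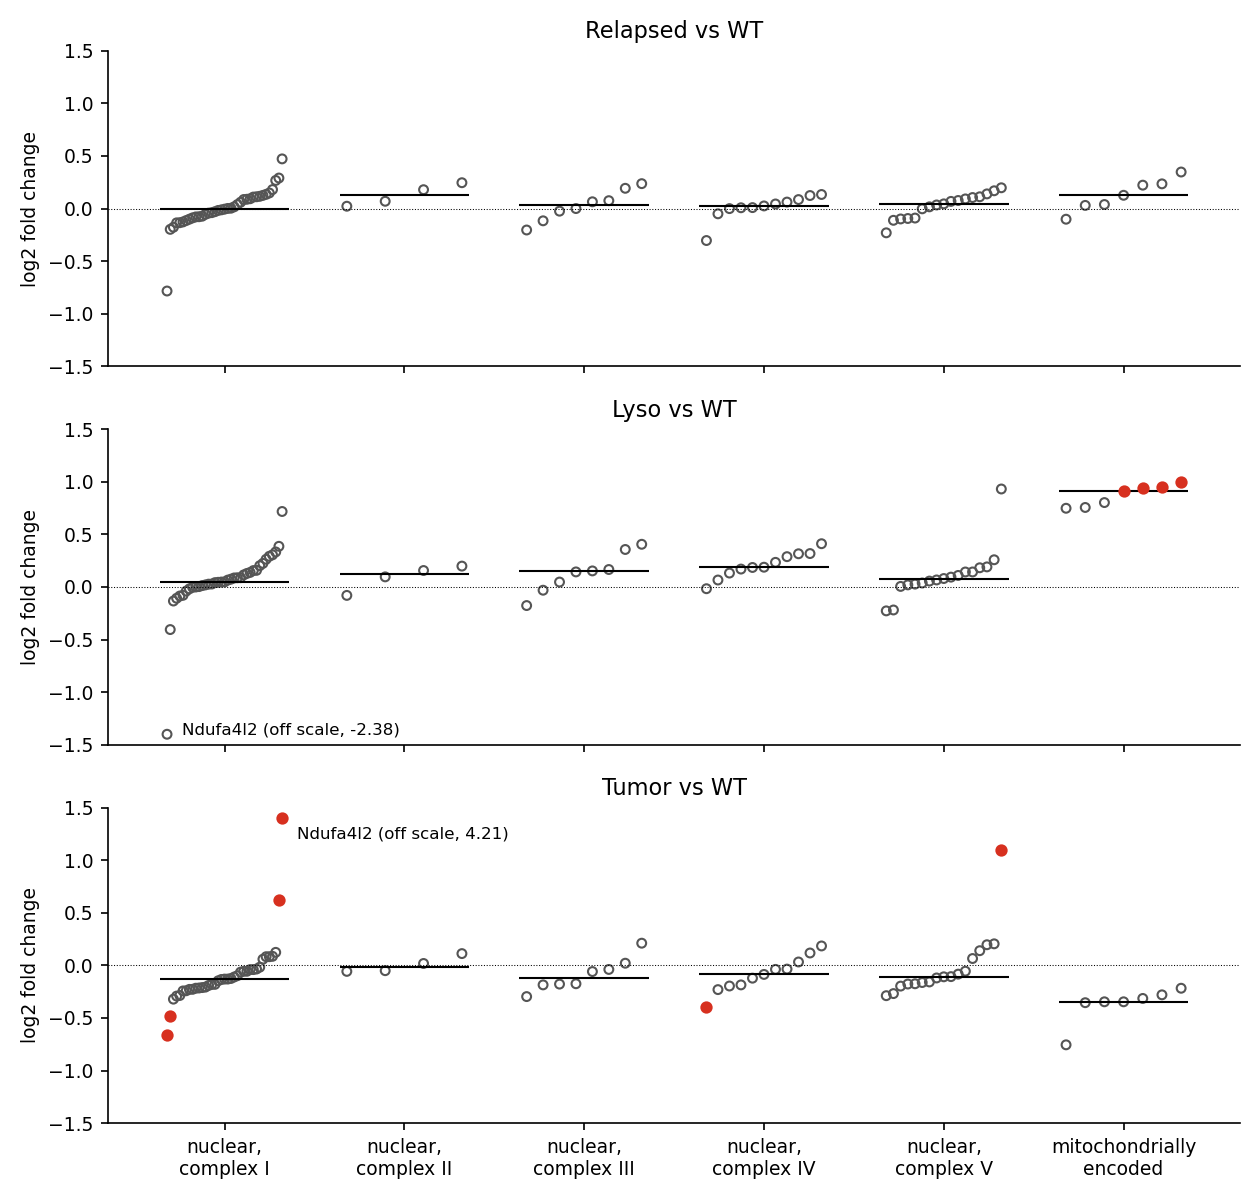
Log2 fold changes against WT of the 77 tested nuclear subunit genes by complex and of the 7 tested mitochondrially encoded genes, 1 point a gene, in order of size, for Relapsed, Lyso and Tumor, with filled red points for genes called by edgeR and lines for medians. In Lyso the called genes are the 4 mitochondrially encoded ones, in Tumor they are 6 nuclear ones, and Ndufa4l2 lies off the scale at 4.21 in Tumor and -2.38 in Lyso, where it held 3 counts in all and was not called.

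Ndufa4l2 was nearly absent outside Tumor and passed the filter on low counts only through the Tumor libraries, so that among tested genes it had to differ. It encodes a paralog of Ndufa4 that is induced in low oxygen and is known to lower complex I activity, and it lies at chr10:127514967-127517154 of GRCm38. Its counts were 1, 1 and 9 in WT, 5 in ITF1, 7 in Rel, 1 in ITM, 0, 1 and 2 in Lyso, and 44, 50 and 23 in Tumor. In CPM the Tumor libraries held 14.3, 10.1 and 5.41, and the highest other library was WT 1 with 0.57, so all Tumor libraries stood apart from the 9 others. The difference was 4.21 on the log2 scale against WT (SE 0.62, edgeR adjusted p = 0.000486) and 4.99 against Relapsed (SE 0.55, edgeR adjusted p = 3.3e-05). With a single library left out the log2 difference from WT ran from 3.88 to 4.51, and without a filter on low counts it was 4.16. With at least 10 counts required in every library compared the gene was not tested. The fibroblast marker genes moved with it, at the summed levels given above, and their part in it was not tested.

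Ndufa4 itself, now counted with complex IV by structural work though its name places it in complex I, was lower. It stood at 392, 444 and 344 CPM in WT, 373 in ITF1, 465 in Rel, 457 in ITM, 388, 388 and 424 in Lyso, and 328, 317 and 318 in Tumor. All Tumor libraries were below all others. It was called against Relapsed (log2 -0.43, SE 0.13, edgeR adjusted p = 0.0335) and not against WT.

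Ndufa5 and Cox6c fell in both comparisons of Tumor. Ndufa5, a small accessory subunit of the arm of complex I outside the membrane, had 96.8, 121 and 99.4 CPM in WT, 95.4, 98.3 and 115 in the relapsed lines, 104, 105.6 and 107 in Lyso, and 77.04, 74.5 and 75.6 in Tumor. The Tumor libraries lay close together below all 9 others, with log2 differences of -0.48 from WT (SE 0.12, edgeR adjusted p = 0.0117) and -0.44 from Relapsed (SE 0.11, edgeR adjusted p = 0.016). Cox6c, an accessory subunit of complex IV, had 174, 148 and 128 CPM in WT and 108, 119 and 112 in Tumor (log2 -0.40, SE 0.13, edgeR adjusted p = 0.0469), and -0.44 against Relapsed (edgeR adjusted p = 0.0269).

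Ndufv3, a small subunit beside the site where complex I takes up NADH, rose against WT. It had 79.8, 76.0 and 71.8 CPM in WT and 107, 115 and 126 in Tumor (log2 0.62, SE 0.18, edgeR adjusted p = 0.0325), while the relapsed lines ran from 67.6 in ITM to 118 in ITF1 and overlapped with Tumor. Atp5l, subunit g of the membrane part of ATP synthase, had 3.96, 4.22 and 3.18 CPM in WT, 7.92, 5.4 and 7.29 in Lyso, and 9.43, 6.44 and 7.53 in Tumor. It was called against WT (log2 1.1, SE 0.29, edgeR adjusted p = 0.0193) and against Relapsed (log2 0.90, SE 0.26, edgeR adjusted p = 0.0259), but most of its length is shared with copies, so that its level and its difference are uncertain. Ndufs5, an accessory complex I subunit with 15.7% of its length shared, had 10.2, 8.44 and 7.73 CPM in WT and 5.85, 5.64 and 4.71 in Tumor, where Lyso, at 5.85, 6.43 and 7.05, reached the Tumor range (log2 -0.66, SE 0.21, edgeR adjusted p = 0.0449).

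Some of these calls were close to the threshold. Of the 6 against WT, that of Ndufs5 was lost whichever library of the compared groups was left out (edgeR adjusted p = 0.0735 to 0.151), while Cox6c kept its call in 1 of 6 such fits, Ndufv3 in 2, Atp5l in 4 and Ndufa5 in 5, losing it without WT 2 (edgeR adjusted p = 0.05). Of the 5 against Relapsed, Ndufa4 kept its call in 1 of 6 such fits, without ITF1, Atp5l in 2, and Ndufa5 and Cox6c in 3 each. Against WT 1 and WT 2, whose depth is nearer to that of Tumor, 3 nuclear genes were called. The count was 2 without WT 2, 3 without any single Tumor library and 7 without WT 1.

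**Figure D5:**
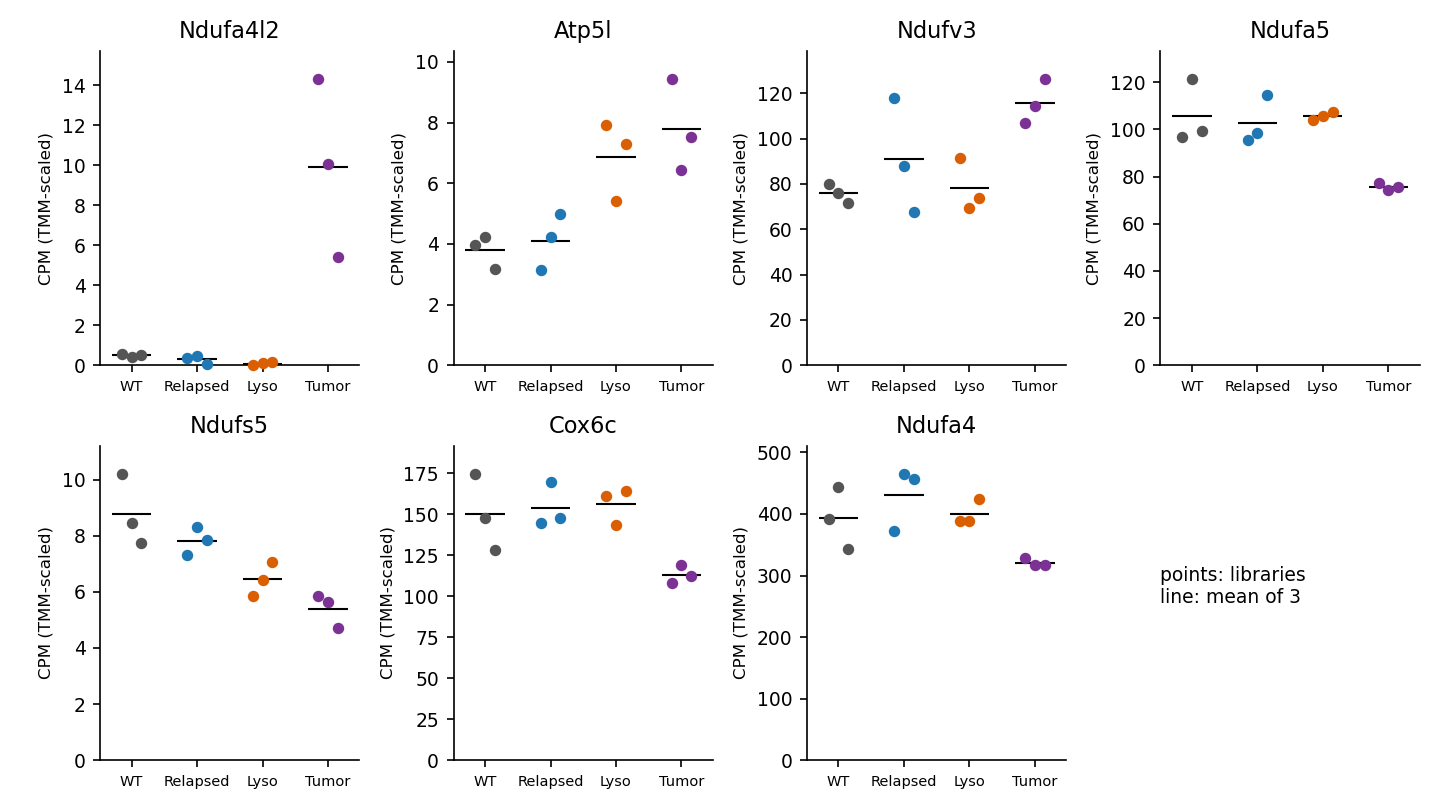
TMM-scaled CPM per library of the 7 nuclear subunit genes called in Tumor against WT or Relapsed, 1 panel a gene with its own axis from 0, points for libraries and lines for the mean of 3. Ndufa4l2, Atp5l and Ndufv3 are higher and Ndufa5, Ndufs5, Cox6c and Ndufa4 lower in all 3 Tumor libraries than in the 3 WT libraries.

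Between Tumor and Relapsed edgeR called 5 of the 77 nuclear genes, Ndufa4l2 and Atp5l higher and Ndufa5, Cox6c and Ndufa4 lower, where 11.8% of all genes tested were called higher and 7.74% lower. The median was -0.11 on the log2 scale. Without ITF1 or ITM the count was 7, without Rel it was 2, without Tumor 3 it was 3, and without Tumor 1 or Tumor 4 it was 1. Between Lyso and Relapsed edgeR called 0 of 77, where 4.87% of all genes tested were called higher and 2.81% lower. At an unadjusted p under 0.05 there were 10, DESeq2 called 3, and edgeR called 2 without Rel and 1 without ITM.

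Subunit forms that heart, skeletal muscle, lung or testis use in place of the common ones were near or at 0. Over all 12 libraries Cox7b2 and Cox8c held 0 counts, Cox8b 1, Cox4i2 4, Cox6b2 5, Cox6a2 20 and Cox7a1 40, and none of them passed the filter on low counts. No library held more than 8 counts of any of these. Their common partners Cox4i1, Cox6a1, Cox6b1, Cox7a2, Cox7b and Cox8a were between 119 and 368 CPM in every library. Skeletal muscle markers summed to 0.566 to 5.43 CPM over the libraries.

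The direct comparison of Lyso with Tumor, added after the data were seen, separated them most. edgeR called all 7 measured mitochondrial genes higher in Lyso, by 1.09 to 1.51 on the log2 scale with a median of 1.21, and DESeq2 called 7. The 7 stayed called without any single library of either group. Among nuclear genes 10 were called higher and 2 lower in Lyso, where 10.5% of all genes tested were called higher and 14.2% lower, so the share called higher was near the background and the share called lower below it. The 2 lower were Ndufa4l2 and Ndufv3. Of the 10 higher, 5 belong to complex IV (Cox5a, Cox6a1, Cox6b1, Cox6c, Cox7a2), all between 0.44 and 0.51 on the log2 scale, out of 11 tested. Called higher in the other complexes were 4 of 37 tested for complex I, 0 of 4 for II, 0 of 8 for III and 1 of 17 for V. The number of nuclear genes ranged from 5 to 11 when 1 library was left out, and was 36 with only these groups fitted. Depth differed between these groups, with every Lyso library deeper than every Tumor library, and its part in the result was not tested.

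Genes that serve the same machinery were counted by lists. The mitochondrial ribosome, which translates the 13 mitochondrial messages, had 12 of 77 tested genes called lower and 0 higher in Tumor against WT by edgeR, where 6.94% of all genes tested were called lower and 12.1% higher. Its median was -0.25 on the log2 scale, and DESeq2 called 11, all lower. An unadjusted p under 0.05, in either direction, was reached by 28 of the 77 and by 4791 of all 14924 genes, which are like shares. Differences below 0 were found for 70 of the 77 and for 7443 of all 14924 genes. Mrpl51 and Mrpl33 had the smallest p (-0.66 and -0.54 on the log2 scale, edgeR adjusted p = 0.00672 and 0.00805). Assembly factors, which insert cofactors and join subunits, had 7 of 48 called lower and 0 higher, against the same 6.94% and 12.1% of all genes, with a median of -0.29, led by Cox19 (-0.77, edgeR adjusted p = 0.00115) and Tmem126b (-0.92, edgeR adjusted p = 0.00465), and DESeq2 called 6 lower. In Lyso against WT edgeR called 1 of 77 mitochondrial ribosome genes, Mrpl41, which was higher, and 0 of the 48 assembly factors. Of all genes tested 3.5% were called higher and 1.21% lower in that comparison. Among the assembly factors 5 reached an unadjusted p under 0.05 and DESeq2 called 0.

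Genes for copying and reading mitochondrial DNA had 3 of 27 called lower in Tumor against WT, where 6.94% of all genes tested were, and DESeq2 called 1. Among them were Fastkd2, an RNA-binding protein of the mitochondrial matrix, at -0.61 (edgeR adjusted p = 0.0104) and Mterf1a at -1.34 (edgeR adjusted p = 0.0357). In Lyso 1 of 27 was called, Twnk, the mitochondrial DNA helicase, which was lower (-0.57, SE 0.15, edgeR adjusted p = 0.0451). Of all genes tested 3.5% were called higher and 1.21% lower in Lyso against WT. The 2 ribosomal RNAs of mitochondrial DNA summed to 1343, 1760 and 1639 CPM in WT, 3983, 2210 and 2363 in Lyso and 1486, 1814 and 1527 in Tumor. The relapsed lines, at 2019 in ITF1, 2070 in Rel and 1797 in ITM, were also above every WT library. mt-Rnr1 was called higher in Lyso than in WT (log2 1.23, SE 0.31, edgeR adjusted p = 0.0433), and both RNAs overlapped with WT in Tumor. Between Lyso and Relapsed neither mt-Rnr1 nor mt-Rnr2 was called (edgeR adjusted p = 0.124 and 0.283). Of 12 nuclear regulators, Myc (1.93, edgeR adjusted p = 7.74e-05) and Hif1a (0.65, edgeR adjusted p = 0.00636), the oxygen-regulated factor, were called higher and Nfe2l2 lower (-0.33, edgeR adjusted p = 0.0449) in Tumor against WT, where 12.1% of all genes tested were called higher and 6.94% lower. In Lyso 0 of the 12 were called, against the same 3.5% and 1.21% of all genes, with 4 at an unadjusted p under 0.05 and 1 by DESeq2. The rule left out Cyc1 of complex III, the electron carrier gene Cycs and the acyl carrier gene Ndufab1. Of these, 0 were called in Lyso or Tumor against WT, with 1 at an unadjusted p under 0.05 in each and 0 by DESeq2. The 13 genes of the citric acid cycle, which feeds the chain with NADH and succinate, had 0 called in Lyso or Tumor against WT, with 0 at an unadjusted p under 0.05 and 0 by DESeq2. Of 10 immediate early and heat shock genes 9 were called higher in Tumor against WT, where 12.1% of all genes tested were. Their summed levels were 3443 to 4122 CPM in Tumor and 159 to 246 in WT. In Lyso the sum was 366 to 407 CPM, above every WT library, with Junb and Egr1 called higher and Hspa1a lower. Their part in the Tumor and Lyso results was not tested.

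Promoters of nuclear subunit genes are known for sites of NRF1 and of ETS factors such as GABP, and both motifs were sought on both strands in the 250 bases before the start. RefSeq promoters (GRCm38.p6) were found for 66 of 84 symbols, not for Ndufa4l2. GCGCATGCG, the core of the NRF1 site, was in 6 of the 66 genes (9.1%) and in 1.6% of all 27025 genes with a promoter, and CCGGAAG, the ETS core, in 12 (18.2%) against 7.8%. Cox6a1 and Atp5l held both. The stretch of Cox6a1, a complex IV subunit with one of the highest levels, at chr5:115348959-115349140 (-) is shown with the motifs in capitals and the NRF1 match first.
Cox6a1: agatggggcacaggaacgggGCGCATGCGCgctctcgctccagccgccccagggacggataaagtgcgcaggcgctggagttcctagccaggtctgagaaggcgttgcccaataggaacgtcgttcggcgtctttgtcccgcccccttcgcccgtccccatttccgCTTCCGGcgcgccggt
The level of Cox6a1 was 266, 278 and 242 CPM in WT, 355, 304 and 318 in Lyso and 234, 221 and 229 in Tumor. Every Lyso library was above and every Tumor library below the WT range, though it was called only between Lyso and Tumor (log2 0.51, SE 0.13, edgeR adjusted p = 0.00953).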

How the data were processed

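RNA of 12 libraries was measured, 3 in each group, with groups taken from the sample labels. The authors trimmed adaptors with fastp 0.19.6, aligned reads to GRCm38 with STAR 2.7.1a and deposited raw counts per gene without normalization. Per the labels their tools also included DESeq2 1.24.0. The strand setting and annotation release are not given in the sources used here. Symbols came from GENCODE M21 (54165 of 54232 identifiers matched). The share of reads counted on genes was 36.2% to 39.4%, and the 4 summary rows stayed out of all library sizes.

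From the deposited counts edgeR 4.0.16 (R 4.3.3) was fitted once to all 12 libraries, with TMM, filterByExpr by group, glmQLFit and glmQLFTest, and Benjamini-Hochberg adjustment over 14924 genes. A gene was called at an adjusted p under 0.05, and its SE is the absolute log2 fold change divided by sqrt(F). The fit was tested on simulated data. Copies were found with BLAST 2.17.0 on GENCODE transcripts and stretches of 75 bases. Members and lists were chosen with earlier results of these data known. Named genes were the 13 mitochondrial genes, core subunits, tissue-restricted forms with their partners, and in each comparison called members without overlap between groups (the 5 lowest p values up and down) and the 3 largest called changes, and up to 2 genes per direction of a related list. Genes named in the comparison of Lyso with Tumor and Cox6a1 as a promoter example were chosen after their values were seen.

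Alternatives were DESeq2 1.42.0, other scalings and filters, a log2 fold minimum of 1, the compared groups alone, a replicate block, WT libraries by depth, and each library left out. Depth ran from 1667398 to 16402629 counts, and floors of 3 counts cover counting error only.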

Additional observations from a re-analysis of the deposited data

Results flagged for a closer look

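Unmapped reads made up 4.76% of all reads in the Tumor columns on average, and each Tumor library was above the highest WT library (4.12%), while ITF1 stood at 4.24% and Tumor 4 at 4.15%. Multimapping reads, which are counted on no gene, made up 14.1% on average in Lyso, with each Lyso library above the highest WT library (12.7%), and stood at 14.9% in Lyso 1, at 13.6% in Lyso 2 and at 13.8% in Lyso 3. The contrasts of Lyso and of Tumor with WT differed for 7 of the 7 measured mitochondrially encoded genes when the difference itself was tested with edgeR as Lyso against Tumor, at adjusted p values of 0.00118 to 0.0053.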

How the results depend on the processing

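Counts of called genes moved with the fit. With DESeq2, 7 mitochondrially encoded genes were called in Lyso against WT (4 in the report), 1 in Tumor against WT, 2 in Tumor against Relapsed and 4 in Lyso against Relapsed, and 3 nuclear genes in the last. Without a filter on low counts the mitochondrially encoded counts were 7, 1, 5 and 5 in the same order, and with library size as the only scaling there was 1 such gene in Tumor against WT and there were 8 nuclear genes in Tumor against Relapsed. With only the compared groups fitted, 2 mitochondrially encoded genes were called in Lyso against WT, 1 in Tumor against WT and 0 in Lyso against Relapsed, and 3 nuclear genes in Tumor against Relapsed and 36 in Lyso against Tumor. With at least 10 counts required in every library compared 3 nuclear genes were called in Tumor against WT. With a log2 fold change over 1 as well, mitochondrially encoded counts were 0 in Lyso against WT and against Relapsed, and nuclear counts 2 in Tumor against WT, 1 in Tumor against Relapsed and 1 in Lyso against Tumor. With WT 1 and WT 2 alone 0 mitochondrially encoded genes were called in Lyso and 3 nuclear genes in Tumor, and with WT 3 alone 0 and 2. The cause of these moves was not tested.

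The replicate block left 0 mitochondrially encoded genes called in Lyso against WT and 1 nuclear gene in Tumor against WT, and turned the log2 difference of mt-Nd1 in Tumor to 0.0567. Same-numbered libraries deviated with correlations of -0.015 to 0.1 over 14924 genes. With 3 libraries in a group, such values cannot tell whether a number marks a shared culture, animal or day.

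With 1 library left out, called mitochondrially encoded genes ranged from 0 to 1 (Lyso against WT), 0 to 6 (Lyso against Relapsed) and 0 to 2 (Tumor against Relapsed), and nuclear genes from 2 to 7 (Tumor against WT), 1 to 7 (Tumor against Relapsed), 0 to 2 (Lyso against Relapsed) and 5 to 11 (Lyso against Tumor). A lone remaining library of a group was assumed to vary like the other groups. The mitochondrially encoded share ranged over 3.74% to 4.04% in WT, 3.51% to 4.59% in Relapsed, 5.85% to 7.0% in Lyso and 2.69% to 2.89% in Tumor. As a percent of all reads that share was 1.51 in WT, 1.59 in Relapsed, 2.45 in Lyso and 1.07 in Tumor. Nuclear sums were 12532 CPM in Lyso with library size only, and 13565 in Lyso and 12266 in Tumor with mitochondrial genes left out of the scaling. Over these 2 scalings the sum ran from 12529 to 12809 CPM in WT and from 11640 to 12266 in Tumor. Sums under unlike scalings are not comparable with each other. Of 603 values of named genes under an alternative, 453 kept their direction and side of the threshold, 120 lost the call, 29 gained it and 1 changed sign.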

Other observations

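Within Lyso, library 1 held more of some nuclear subunit messages. Ndufb4, an accessory subunit of complex I, stood at 31.2 CPM in Lyso 1 against 12.7 and 13.6 in Lyso 2 and Lyso 3, and Uqcr11, a small subunit of complex III, at 109 against 58.2 and 62.8. Ndufs7 stood at 83.9 against 55.5 and 52.0, and the mitochondrial ribosomal RNAs at 3983 against 2210 and 2363 CPM. Other members were alike in the 3 libraries, such as Ndufa1 of complex I at 48.3, 41.5 and 47.7 CPM. The named members were chosen after their values were seen.

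Annotated nuclear copies of mitochondrial genes took few counts. Over the 12 libraries Gm13341, a copy of mt-Co2 with 95.91% identity, held 1567 counts, Gm28438, a copy of mt-Nd3, 710, and Gm28661, the identical copy of mt-Co2, 60.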
